A study of Mus musculus with 6 samples.

Results

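The genes described here are 10 components and effectors of the Notch pathway and of proneural differentiation, Dll1, Dll3, Jag1, Mfng, Notch1, Hes1, Hes5, Hey1, Hes6 and Insm1, out of 22180 genes on the arrays. They were taken by their symbols, each as the probe set that names only that gene and has the highest mean over the arrays, and all 10 were found. Total RNA of 6 mouse cell samples was hybridised to single-colour Affymetrix arrays, 1 for every group. They comprised iPV cells (fibroblasts under induction toward parvalbumin neurons) sorted for green fluorescence at 14 days post infection, a sample labelled endogenous parvalbumin (PV) neurons, mouse embryonic fibroblasts (MEF) as the baseline, and unsorted iPV cells at 3, 7 and 14 days. All 6 samples came from C57BL/6 mice with a PV-GFP transgene, which marks parvalbumin neurons with green fluorescent protein, and the labels give embryos of 13.5 days for each of them. The same protocol text on D10 medium and adenovirus infection is attached to all 6 samples, also to MEF and to the one labelled endogenous PV, and neither the genes carried by the virus nor the promoter of the transgene is named. The comparisons ask how Notch and proneural genes differ between induced, sorted and starting cells.

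Notch signalling passes between touching cells. A ligand of the Delta or Jagged family on one cell binds a Notch receptor on its neighbour, the receptor is cleaved, and its inner part enters the nucleus, where it joins Rbpj and a Mastermind coactivator and switches on Hes and Hey repressors. In the developing nervous system those repressors hold proneural basic helix-loop-helix (bHLH) factors down, while cells that become neurons make proneural factors, which in turn switch on Delta ligands and Hes6. Parvalbumin neurons are fast-spiking inhibitory neurons of the forebrain.

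Values are log2 intensities, and none of the differences below has a replicate check, so each describes the pair of arrays compared and no p-value was computed. A floor of 5.01, where the median of the non-control probe sets lay, replaced all lower values before a difference was taken, and a fold against a gene under the floor is a lower bound, written "at least". A gene was counted when its floored values differed by 1 log2 unit or more (2-fold). Where a number of genes is said to differ at least as far, it takes genes of the same direction only and includes the named gene. The only error that could be computed was a probe-set spread. This spread is the standard deviation with which the brightest pair of probe sets of a gene disagree about one difference, divided by the square root of 2. It ran between 0.27 and 0.50 log2 units over the 9 comparisons, and it leaves out variation between cultures and animals. Only genes with both probe sets above the floor on both arrays entered it. The spread was thus not measured for values below the floor, such as those of Dll3 and Dll1 in MEF. In these bulk samples, fewer cells of a type and less RNA per cell cannot be told apart. The genes described, the gene lists and the comparisons were chosen with earlier results of these data known. Counts among them are set beside shares of all genes as description only. Because of that choice, an excess over such a share cannot test whether the pathway differed from other genes.

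The 6 arrays resembled each other closely, with Pearson correlations between 0.96 and 0.978 over all non-control probe sets. On the fibroblast and parvalbumin neuron lists, the array labelled endogenous PV went against its label. All 18 genes of a fibroblast marker list were above the floor on it, with a mean of 10.16, against 9.84 in sorted cells and 10.22 in MEF. Of 11 parvalbumin neuron markers, 5 (Gad2, Kcnc1, Kcnc2, Erbb4 and Tac1) lay below the floor on every array, that one included. The other 6 were above it there, between 5.05 (Slc32a1) and 5.78 (Lhx6), against 3 of 11 in sorted cells and 5 of 11 in MEF. The list mean was 4.73 on that array, beside 4.68 in sorted cells and 4.69 in MEF. Pvalb itself read 6.29 in sorted cells and 5.48 for the array with the endogenous PV label, against 5.23 in MEF and 5.76, 6.15 and 5.80 at days 3, 7 and 14. The array is therefore called the array labelled endogenous PV throughout, and differences from it are not differences from parvalbumin neurons shown to be such. Fibroblast markers also stayed high in sorted cells, where 17 of 18 were above the floor. Of 16 neuron markers, Snap25 (1.52) was at least 2-fold higher on the array labelled endogenous PV than in MEF. So were Tyrobp (1.7) of 9 macrophage markers and Fabp7 (1.24) and Slc1a3 (1.59) of 11 neural progenitor and radial glia markers. No gene of these lists was that much lower. Of 18 fibroblast markers, 4 were higher and 3 lower by that much, and 7 of 9 proliferation markers were lower.

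Among the 10 genes, 6 (Jag1, Notch1, Hes1, Hes5, Hes6 and Insm1) were above the floor on all 6 arrays, and each of the 10 was above it on at least 1, against 64.4% of all genes. Floored values spanned 1 log2 unit or more over the arrays in 11.5% of all genes. That share includes genes below the floor on every array, whose floored values are all equal. The 5 members that spanned as much were Dll3 (2.38), Hes6 (2.15), Jag1 (1.26), Hes1 (1.15) and Dll1 (1.04). They followed 2 patterns. Dll3, Hes6 and Dll1 were lowest in MEF and highest in sorted cells, and Hes1 and Jag1 were lowest at day 7. In all, 6 of the 10 genes had their highest value in sorted cells, as did 24.7% of all genes above the floor on some array.

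**Figure D1:**
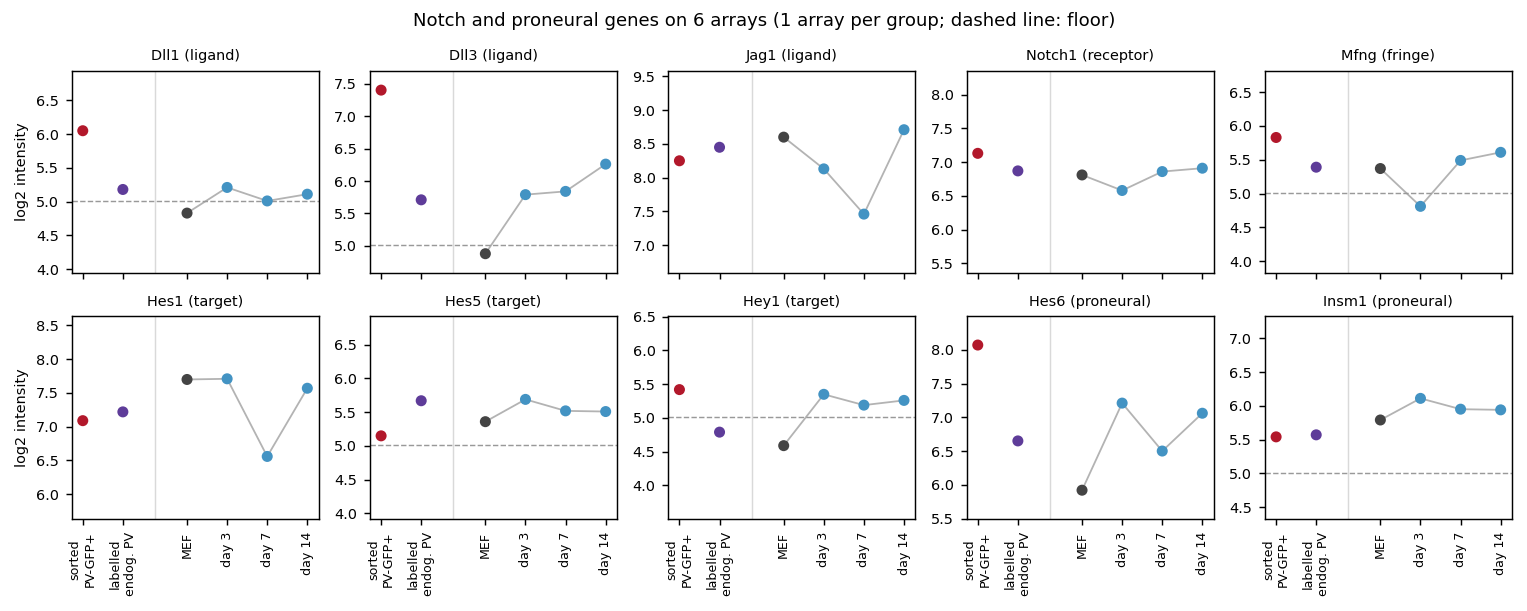
Log2 intensity (vertical axes) of each of the 10 genes on the 6 arrays, with sorted PV-GFP+ cells and the array labelled endogenous PV on the left and MEF and iPV days 3, 7 and 14, joined by a line, on the right. The dashed line is the floor of 5.01, and each point is 1 array with no error bar. Dll3 and Hes6 peak in sorted cells at 7.40 and 8.07, and Hes1 and Jag1 dip at day 7 to 6.56 and 7.46.

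Dll3, a divergent Delta ligand that acts mainly inside the cell that makes it, differed most among the 10 genes between sorted cells and MEF. Its probe set (17488379) read 7.40 in sorted cells and 5.71 for the array with the endogenous PV label, against 4.88 in MEF and 5.79, 5.84 and 6.26 at days 3, 7 and 14. MEF alone lay below the floor, the 3 unsorted iPV arrays lay between MEF and sorted cells, and the array labelled endogenous PV lay just under day 3. Dll3 was at least 5.22-fold higher in sorted cells than in MEF, a floored difference of 2.38 or 4.7 times the probe-set spread. Dll3 included, 78 genes of 22180 were higher by at least as much between these arrays.

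Hes6, a member of the Hes family that opposes Hes1 and promotes neuronal differentiation, was above the floor on every array. Its probe set (17225499) read 8.07 in sorted cells and 6.65 for the array with the endogenous PV label, against 5.92 in MEF and 7.21, 6.50 and 7.06 at days 3, 7 and 14. Sorted cells stood highest, days 3 and 14 stood close together, and day 7 stood nearest to the array labelled endogenous PV. Hes6 was 4.44-fold higher in sorted cells than in MEF, a difference of 2.15 or 4.3 times the probe-set spread, and 116 genes differed at least as far.

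Dll1, a Delta ligand that activates Notch on neighbouring cells, read close to the floor except in sorted cells. Its brighter probe set (17341179) read 6.05 in sorted cells and 5.18 for the array with the endogenous PV label, against 4.83 in MEF and 5.21, 5.01 and 5.11 at days 3, 7 and 14. The sorted array stood apart, the array labelled endogenous PV, day 3 and day 14 lay just over the floor, and MEF and day 7 lay below it. Dll1 was at least 2.05-fold higher in sorted cells than in MEF, a floored difference of 1.04 or 2.1 times the probe-set spread, and 743 genes differed at least as far. A second Dll1 probe set lay between 4.29 and 4.66, below the floor on all 6 arrays, so this difference rests on 1 probe set, and the mean of both gave 0.26.

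These 3 genes were the members at least 2-fold higher in sorted cells than in MEF, 3 of 10, and none was that much lower. The count was 2 with quantile normalization (Dll1 at 0.99), 2 with the mean of probe sets, and 1, Hes6, with a floor at percentile 75, where Dll3 differed by 0.81. Over all genes, 5.31% were at least 2-fold apart between the same arrays in either direction and 3.67% were higher, and the second share was 6.04% over genes above the floor on at least 1 of these 2 arrays. The median floored difference of the 10 genes was 0.37, beside 0.00 for all genes. Neuron markers were higher as well. Of 16, 8 (Tubb3, Snap25, Syt1, Nefl, Nefm, Nefh, Elavl3 and Uchl1) were at least 2-fold higher in sorted cells, and the mean of the list was 6.59 in sorted cells and 5.65 in MEF, with Dcx and Elavl4 below the floor on all arrays. Of 11 neural progenitor and radial glia markers, Fabp7 and Nes were at least 2-fold higher, with list means of 5.63 in sorted cells and 5.43 in MEF, and Sox2 and Gfap were below the floor on all arrays. Of 6 neuroendocrine granule markers, Chga and Chgb were at least 2-fold higher, with list means of 5.61 in sorted cells and 4.07 in MEF. Proliferation markers were lower, with 7 of 9 at least 2-fold lower and list means of 6.43 in sorted cells and 7.94 in MEF. Of 9 smooth muscle and pericyte markers, Des differed by 3.17 (8.42 in sorted cells, 5.25 in MEF) and Rgs5 by 2.84 (8.21 in sorted cells, 5.37 in MEF), and the list means were 7.75 in sorted cells and 7.20 in MEF. Macrophage markers were at least 2-fold lower for 4 of 9, Lyz2 by -3.75, with list means of 5.05 in sorted cells and 6.59 in MEF. Of 18 fibroblast markers, 1 was at least 2-fold higher and 4 were lower, and Flt1, 1 of 13 endothelial markers, was lower. The part of these lists in the values of Dll3, Hes6 and Dll1 was not tested.

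The stretches before the start sites of these genes are shown because all 3 were higher in sorted cells than in MEF. The E-box CAGCTG, a sequence that proneural bHLH factors are known to bind, was searched in the 250 bases before each start site in RefSeq's promoters on GRCm38.p6, which held 6 of the 10 genes in 8 windows. It was found in 4 of the 6 genes (Dll1, Dll3, Hes6 and Jag1) and in 5 of the 8 windows, and in 13.0% of 32851 mouse windows of that length. The letters read the same on both strands, and each match is also 1 of the looser matches CANNTG. The looser letters were in 5 of the 6 genes and in 7 of the 8 windows, beside 66.2% of all windows. All 3 windows below are on the minus strand, written 5′ to 3′ toward the gene, with CAGCTG in capitals. For Dll3 the window is chr7:28301786-28302035 and the match spans bases -7 to -2 from the start site. The Hes6 window is chr1:91414039-91414288 with the match at -171 to -166, and the Dll1 window is chr17:15376933-15377182 with the match at -132 to -127. A second Dll1 window, at another start site, had no CAGCTG.
Dll3: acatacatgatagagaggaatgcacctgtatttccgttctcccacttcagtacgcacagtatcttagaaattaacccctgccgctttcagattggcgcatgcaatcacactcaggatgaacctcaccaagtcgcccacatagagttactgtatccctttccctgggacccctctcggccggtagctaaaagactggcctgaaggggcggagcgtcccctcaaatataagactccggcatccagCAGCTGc
Hes6: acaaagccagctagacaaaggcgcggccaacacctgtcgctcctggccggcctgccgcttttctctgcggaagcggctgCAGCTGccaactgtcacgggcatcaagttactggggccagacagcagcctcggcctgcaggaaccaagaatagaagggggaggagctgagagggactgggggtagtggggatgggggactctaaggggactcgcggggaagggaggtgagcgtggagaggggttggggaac
Dll1: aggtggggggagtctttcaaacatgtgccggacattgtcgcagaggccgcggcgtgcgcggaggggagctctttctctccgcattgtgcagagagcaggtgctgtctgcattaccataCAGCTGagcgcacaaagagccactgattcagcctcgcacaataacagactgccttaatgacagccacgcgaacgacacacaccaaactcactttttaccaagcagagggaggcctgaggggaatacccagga

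Shorter stretches are enough for the other matches. A second Hes6 start site had CAGCTG at -150 to -145 (chr1:91413357-91413382, minus strand), and Jag1, a gene of the other pattern, had it at -82 to -77 (chr2:137116587-137116612, minus strand), so the letters were not limited to the genes that stood highest in sorted cells. Hes5, a direct target of Notch in neural progenitors, had no CAGCTG but held TGGGAA, the core that Rbpj is known to bind, at -82 to -77 (chr4:154960831-154960856, plus strand) and, as TTCCCA on the other strand, at -226 to -221 (chr4:154960687-154960712). TGGGAA on either strand was in 1 of the 6 genes and in 1 of the 8 windows, beside 21.6% of all windows. CACNAG on either strand, the N-box that Hes repressors are known to bind, was in 2 of the 6 genes (Hes6 and Notch1). It was in 2 of the 8 windows, beside 36.7% of all windows. The matches are in capitals, and they describe letters, not measured binding.
Hes6, second start site: tccgccccgcCAGCTGccagagaccc
Jag1: gcgtttcatgCAGCTGatctgaaagg
Hes5, nearer match: ccgccgagtgTGGGAAcggccgcggc
Hes5, farther match: ggcgagcgcgTTCCCAcagcccggac

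Against the unsorted culture of the same age, sorted cells were again higher in Dll3 and Hes6. Dll3 was 2.20-fold higher in sorted cells than at day 14 (7.40 against 6.26) and Hes6 2.0-fold (8.07 against 7.06), which is at the threshold itself. Dll1, at 6.05 in sorted cells and 5.11 at day 14, missed the threshold with a difference of 0.94. These were 2 of 10 genes, against 1.87% of all genes at least 2-fold apart and 1.26% higher, and the differences of Dll3 and Hes6 were 3.4 and 3.0 times the probe-set spread. Over genes above the floor on at least 1 of these 2 arrays, 2.12% were higher. With quantile normalization the Hes6 difference was 0.95, and with centring on housekeeping genes that of Dll1 was 1.06. Tubb3, Map2 and Snap25, 3 of 16 neuron markers, were also at least 2-fold higher in sorted cells, with list means of 6.59 in sorted cells and 6.02 at day 14. Rgs5 (1.77) and Des (1.33) were higher and Tagln (-1.32) was lower among 9 smooth muscle and pericyte markers, with list means of 7.75 in sorted cells and 7.58 at day 14. Of 9 macrophage markers, Lyz2 (-2.04) and Fcer1g (-1.45) were lower, with list means of 5.05 in sorted cells and 5.68 at day 14. Chga (1.32) was higher among 6 neuroendocrine markers, and Flt1 was lower among 13 endothelial ones. The part of these markers was not tested.

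Against the array labelled endogenous PV, the same 2 genes passed the threshold. Dll3 was 3.22-fold higher in sorted cells (7.40 against 5.71), and 43 genes of 22180 differed at least as far. Hes6 was 2.67-fold higher in sorted cells (8.07 against 6.65), and 99 genes differed at least as far. Dll1 differed by 0.87, with 6.05 in sorted cells and 5.18 for the array labelled endogenous PV. The 2 genes of 10 compare with 2.50% of all genes at least 2-fold apart and 1.36% higher in sorted cells, and the differences of Dll3 and Hes6 were 5.2 and 4.4 times the probe-set spread. Over genes above the floor on at least 1 of these 2 arrays, 2.28% were higher in sorted cells. Neuron markers were at least 2-fold higher in sorted cells for 7 of 16 and lower for 1 (Gap43), and macrophage markers were lower for 6 of 9, with list means of 5.05 in sorted cells and 6.99 for the array labelled endogenous PV. Rgs5 (2.29) and Des (1.90), of the smooth muscle and pericyte list, and Chga (1.43) and Chgb (1.34), of the neuroendocrine list, were at least 2-fold higher in sorted cells too. Nes was higher and Slc1a3, Flt1, Col3a1 and Lum were lower by that much. The part of these markers was not tested. The comparisons of sorted cells share the sorted array, so they are not separate evidence.

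**Figure D2:**
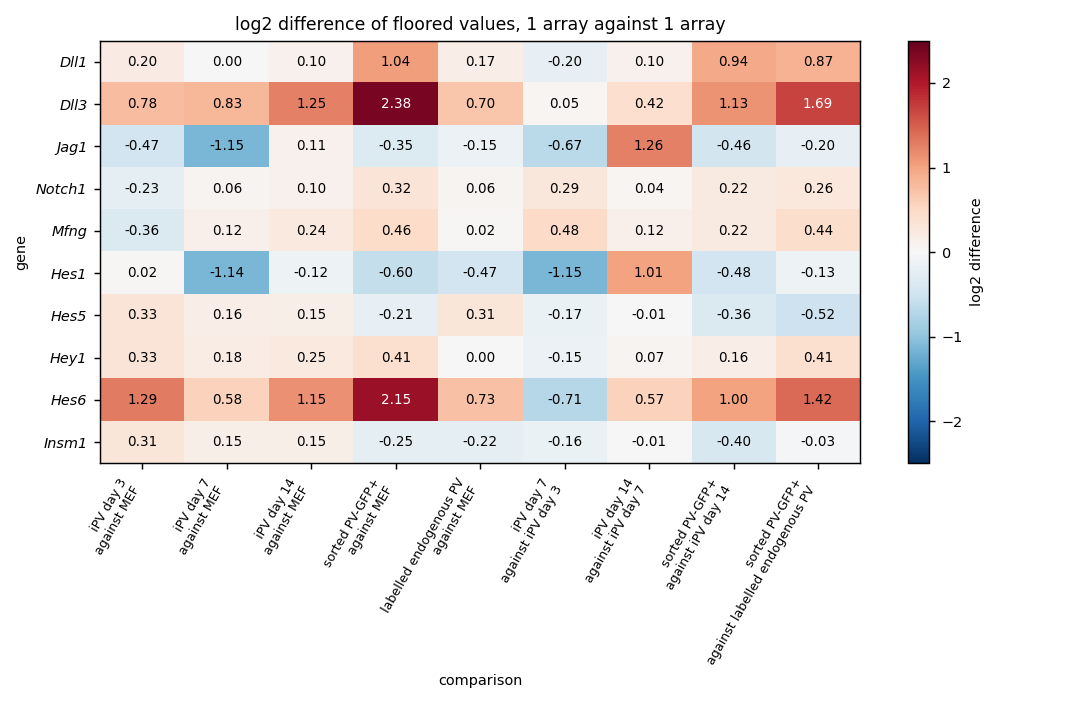
Heat map of the floored log2 differences of the 10 genes (rows) in the 9 comparisons (columns, the group named first minus the other), with the value in each cell, red for higher and blue for lower. The rows of Dll3 and Hes6 are red at 1.0 or more in the 3 comparisons of sorted cells, and those of Hes1 and Jag1 are blue at -1.14 and -1.15 for day 7 against MEF.

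In unsorted cells Hes6 passed the threshold against MEF at days 3 and 14 and Dll3 at day 14. At day 3, Hes6 was 2.45-fold higher than in MEF (7.21 against 5.92), and 171 genes differed at least as far. It was the only member at least 2-fold apart, 1 of 10 against 3.07% of all genes in either direction and 1.43% higher. Over genes above the floor on at least 1 of these 2 arrays, 2.37% were higher. Dll3 differed by at least 0.78 at day 3 (5.79 against 4.88 in MEF) and by at least 0.83 at day 7 (5.84 against 4.88), and did not reach the threshold on either array. Hes6 differed by 0.58 at day 7 (6.50 against 5.92 in MEF), so neither gene was counted there. At day 14, Dll3 was at least 2.38-fold higher than in MEF (6.26 against 4.88) and Hes6 was 2.22-fold higher (7.06 against 5.92). These were 2 of 10 genes, against 3.36% of all genes in either direction and 2.10% higher, at 2.9 and 2.7 times the probe-set spread. Over genes above the floor at day 14 or in MEF, 3.47% were higher at day 14. With centring on housekeeping genes the Hes6 difference at day 14 was 0.89. Of the 16 neuron markers, 0 were at least 2-fold higher than in MEF at day 3 and 1 (Snap25) was at days 7 and 14, and Map2 was at least 2-fold lower at day 14. Other lists differed from MEF as well. Proliferation markers were at least 2-fold lower for 8 of 9 at day 3, 0 at day 7 and 7 at day 14. Macrophage markers were lower for 5, 4 and 3 of 9 at days 3, 7 and 14. Smooth muscle and pericyte markers were higher for 3, 3 and 2 of 9, with Des differing by 2.61, 2.60 and 1.84. Fabp7 and Nes, of the neural progenitor list, were higher on all 3 arrays, and Flt1, of the endothelial list, was lower on them. Fibroblast markers were lower for 7, 3 and 3 of 18 and higher for 2, 2 and 1. The part of these markers was not tested.

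On the array labelled endogenous PV, none of the 10 genes was 2-fold apart from MEF, where 3.10% of all genes were. Hes6 came nearest, at 6.65 on the array labelled endogenous PV and 5.92 in MEF, a difference of 0.73. Dll3, at 5.71 on the array labelled endogenous PV and 4.88 in MEF, differed by at least 0.70, and both differences were 1.7 times the probe-set spread. With 1 array a group, a difference under the threshold does not show that values were alike.

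Hes1 and Jag1 formed the other pattern, a dip at day 7. Hes1, the bHLH repressor that Notch switches on in many cell types, read 7.09 in sorted cells and 7.22 for the array with the endogenous PV label, against 7.70 in MEF and 7.71, 6.56 and 7.57 at days 3, 7 and 14 (probe set 17324623). Day 7 stood alone at the low end, MEF, day 3 and day 14 lay close together at the high end, and the other arrays lay between them. Jag1, a ligand that fibroblasts and many other cells carry, read 8.25 in sorted cells and 8.45 for the array with the endogenous PV label, against 8.60 in MEF and 8.13, 7.46 and 8.71 at days 3, 7 and 14 (probe set 17392151). Its lowest value was again day 7, with day 3 next.

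At day 7, Hes1 was 2.20-fold lower than in MEF (6.56 against 7.70) and Jag1 was 2.21-fold lower (7.46 against 8.60), at 3.0 and 3.1 times the probe-set spread in size. These were the 2 members of 10 at least 2-fold apart, set against 2.54% of all genes in either direction and 0.843% lower. Against day 3, Hes1 was 2.23-fold lower at day 7 (6.56 against 7.71), as 1 of 10 genes against 1.83% of all genes in either direction and 0.528% lower, and 63 genes differed at least as far. Jag1 differed by -0.67 between these days. At day 14, Jag1 was 2.39-fold higher than at day 7 (8.71 against 7.46), with 52 genes at least as far apart, and Hes1 was 2.02-fold higher (7.57 against 6.56). They were 2 of 10 genes against 1.43% of all genes in either direction and 0.604% higher, at 4.6 and 3.7 times the probe-set spread. Over genes above the floor on at least 1 array compared, 1.39% were lower at day 7 than in MEF. On that basis 0.870% were lower at day 7 than at day 3, and 1.01% were higher at day 14 than at day 7. Hes1 at day 14 against day 7 passed the threshold by little and gave 0.93 with centring on housekeeping genes and 0.94 with quantile normalization. The 3 comparisons share the day 7 array, so the dip is 1 observation on 1 array.

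Proliferation markers stood high at day 7, where Hes1 and Jag1 stood low. The mean of 9 such markers was 6.43 in sorted cells and 6.72 for the array with the endogenous PV label, beside 7.94 in MEF and 6.33, 7.82 and 6.27 at days 3, 7 and 14. Compared with day 3, all 9 were at least 2-fold higher at day 7. Compared with day 7, all 9 were at least 2-fold lower at day 14. In MEF the proliferation markers, Hes1 and Jag1 were all high. The part of proliferation in the dip was not tested.

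The other 5 genes differed by less than 2-fold in all 9 comparisons. Notch1, the receptor, lay between 6.58 (day 3) and 7.13 (sorted cells), and its difference was 0.32 between sorted cells at 7.13 and MEF at 6.81, or 0.6 times the probe-set spread. Insm1, a zinc-finger repressor of neuronal and neuroendocrine progenitors, ranged over the arrays between 5.54 (sorted cells) and 6.11 (day 3). It read 5.79 in MEF, so it did not stand with Dll3 and Hes6 at the high end of sorted cells. Mfng, a fringe enzyme that adds sugars to Notch and changes which ligands it answers, lay between 4.81 at day 3 and 5.83 in sorted cells.

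Hes5 and Hey1 are Notch targets that read near the floor. Hes5 ranged between 5.15 (sorted cells) and 5.69 (day 3), and a second Hes5 probe set lay between 3.83 and 4.60, below the floor on all 6 arrays. Hey1 read 5.42 in sorted cells, its highest value, and 4.59 in MEF, its lowest, and was below the floor in MEF and on the array labelled endogenous PV. Among the Notch-induced repressors of the 10 genes, Hes1 and Hes5 differed by -0.60 and -0.21 between sorted cells and MEF, and Hey1 by at least 0.41.

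The rest of the pathway was read through 12 lists of 110 genes, 100 of which are not among the 10. Between sorted cells and MEF, 17 of the 110 were at least 2-fold higher and 1 was at least 2-fold lower, with a median difference of 0.30, beside a median of 0.00, 3.67% higher and 1.64% lower over all genes. The ligand list held 5 of these 17 in its 9 genes and had a median of 1.01. Besides Dll1 and Dll3 they were Dner, a noncanonical ligand of neurons (11.5-fold, 8.65 against 5.13), Cntn1, a contactin adhesion protein that can bind Notch (8.87-fold, 8.55 against 5.40), and Jag2 (at least 2.01-fold, 6.02 against 4.79). Dll4 and Dlk2 read near or below the floor, and Dlk1, a noncanonical ligand of mesenchymal progenitors, differed by 0.68 (7.42 against 6.74).

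The machinery that receives and transmits the signal differed less between these arrays. None of the 4 receptors, 8 cleavage genes, 5 glycosylation genes, 5 ligand endocytosis genes or 10 genes of the co-repressor list was at least 2-fold apart. That last list holds Kyat1, a kynurenine aminotransferase that is no co-repressor. Notch2 read 9.07 in sorted cells and 8.46 in MEF, Notch3 read 7.04 in sorted cells and 6.32 in MEF, and Lfng, a fringe enzyme like Mfng, read 5.75 in sorted cells and 5.81 in MEF. Rbpj, the DNA-binding partner of Notch, read 8.82 in sorted cells and 9.17 in MEF. Of 8 nuclear complex genes, Maml3, a Mastermind coactivator, was 2.89-fold higher (6.78 against 5.25). Of 10 antagonist and turnover genes, the Deltex ubiquitin ligases Dtx4 (2.68-fold, 7.69 against 6.27) and Dtx3 (2.04-fold, 7.77 against 6.74) were higher. Nrarp, a feedback inhibitor that Notch switches on, read 4.81 in sorted cells, below the floor, and 5.37 in MEF.

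**Figure D3:**
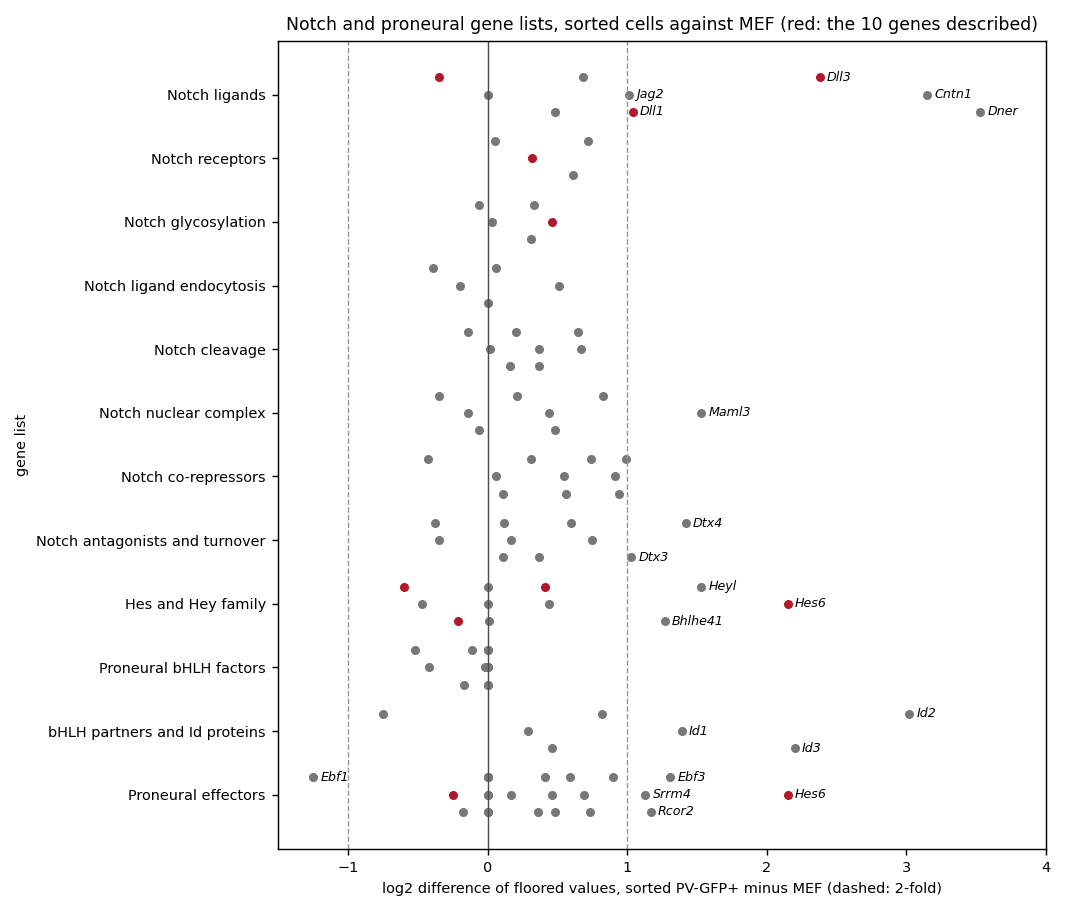
Floored log2 difference, sorted PV-GFP+ cells minus MEF, of each gene (points) in the 12 Notch and proneural lists, with dashed lines at 2-fold and red for the 10 genes described. Ligands and Id genes reach furthest to the right, with Dner at 3.53 and Id2 at 3.02, and all receptor, cleavage, glycosylation, endocytosis, co-repressor and proneural bHLH points lie between the dashed lines.

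In the Hes and Hey family, 3 of 11 genes were at least 2-fold higher in sorted cells than in MEF. They were Hes6, Heyl (2.88-fold, 7.15 against 5.63), a Notch target best known in vascular and muscle cells, and Bhlhe41 (2.42-fold, 6.80 against 5.53), a repressor of the circadian clock. Hey2 read above the floor only at day 3 (5.13). None of the 11 proneural bHLH factors analysed was 2-fold apart between these arrays, and 6 of them (Neurog1, Neurod1, Neurod4, Neurod6, Ptf1a and Olig2) were below the floor on all 6 arrays. Neurog2, which was above the floor on all arrays, read 5.09 in sorted cells and 5.52 in MEF.

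The Id genes, whose proteins bind the partners of proneural factors and keep them off DNA, held 3 of the 17. Their list of 7, which also holds the partner genes Tcf3, Tcf4 and Tcf12, had a median difference of 0.82. Id2 was 8.10-fold higher in sorted cells than in MEF (9.72 against 6.70), Id3 4.61-fold (9.68 against 7.48) and Id1 2.63-fold (8.11 against 6.72). Id4 differed in the other direction, by -0.75 (6.79 against 7.53). The unsorted cultures were high as well. Id2 read 9.76, 9.17 and 9.0 at days 3, 7 and 14, so its value at day 3 was as high as in sorted cells, and it was 8.32-fold higher there than in MEF. Id1 read 8.33, 7.33 and 8.28 at days 3, 7 and 14, and was 2.01-fold lower at day 7 than at day 3. Among these days it was lowest at day 7, as was Hes1, but unlike Hes1 it stood above its MEF value there.

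Among 23 proneural effectors, 4 were at least 2-fold higher in sorted cells than in MEF and 1 was lower. They were Hes6, Ebf3 (2.47-fold, 6.94 against 5.64), Rcor2 (2.26-fold, 6.61 against 5.44), a corepressor of neuronal genes, and Srrm4 (2.19-fold, 6.71 against 5.58), a splicing factor that includes neural exons. Ebf1, a transcription factor of the same family as Ebf3 that mesenchymal cells also carry, was 2.38-fold lower (8.37 against 9.62). Insm2, Myt1l, St18, Nhlh1, Nhlh2, Elavl4 and Dcx, 7 of the 23, were below the floor on all arrays. Srrm4 and Rcor2 were also higher in sorted cells than on the array labelled endogenous PV, 2.79-fold (6.71 against 5.23) and 2.09-fold (6.61 against 5.55).

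Over the unsorted series, Dner, Cntn1, Dtx4, Id2 and Id3 were at least 2-fold higher than in MEF on each of the 3 arrays. Dner read 5.13 in MEF and 7.99, 7.47 and 8.24 at days 3, 7 and 14, and was 7.25-fold, 5.07-fold and 8.67-fold higher than in MEF. Cntn1 read 5.40 in MEF and 7.40, 8.03 and 6.83 at these days, highest at day 7. Dlk1 also stood highest at day 7, at 8.73, against 6.74 in MEF, 7.85 at day 3 and 6.51 at day 14, the reverse of Hes1 and Jag1, and was 4.66-fold lower at day 14 than at day 7. Sox11, a factor of young neurons, and Cdkn1c, an inhibitor of cell division, were higher than in MEF at days 3 and 7, Sox11 by at least 3.35-fold and at least 2.17-fold and Cdkn1c by 2.56-fold and 2.91-fold. At day 14, Cdkn1c was 2.85-fold lower than at day 7 and Bhlhe40, a relative of Bhlhe41, was 2.59-fold higher, as was Btg2, an inhibitor of cell division in neural progenitors, by 2.24-fold (8.45 against 7.29). Over all 110 genes, 10 were higher and 1 lower at day 3 than in MEF, beside 1.43% higher and 1.64% lower over all genes. At day 7 the counts were 8 and 2, beside 1.70% and 0.843%, and at day 14 they were 9 and 1, beside 2.10% and 1.26%. At day 7, 0 were higher and 2 lower than at day 3, beside 1.30% and 0.528%. At day 14, 4 were higher and 4 lower than at day 7, beside 0.604% and 0.825%.

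Several of these genes were high on the array labelled endogenous PV too, where 7 of the 110 were at least 2-fold higher than in MEF and none lower, beside 2.13% higher and 0.969% lower over all genes. They were Dner (4.48-fold), Cntn1 (3.73-fold), Id2 (3.45-fold), Maml3 (2.39-fold), Id3 (2.28-fold), Dlk1 (2.11-fold) and Dtx4 (2.01-fold). Sorted cells exceeded that array at least 2-fold in 9 of the 110 and were below it in 1, beside 1.36% higher and 1.14% lower over all genes. The non-members among the 9 were Srrm4, Dner (2.57-fold), Cntn1 (2.38-fold), Id2 (2.35-fold), Heyl (2.30-fold), Rcor2 and Id3 (2.02-fold), and Ebf1 was 2.76-fold lower (8.37 in sorted cells, against 9.83 on that array). Against day 14, sorted cells were at least 2-fold higher in Cntn1 (3.29-fold), Ebf3 (3.15-fold) and Heyl (2.74-fold) besides Dll3 and Hes6, and 2.36-fold lower in Id4, which is 5 higher and 1 lower beside 1.26% and 0.609% of all genes. With centring on housekeeping genes 10 of the 110 were higher.

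**Figure D4:**
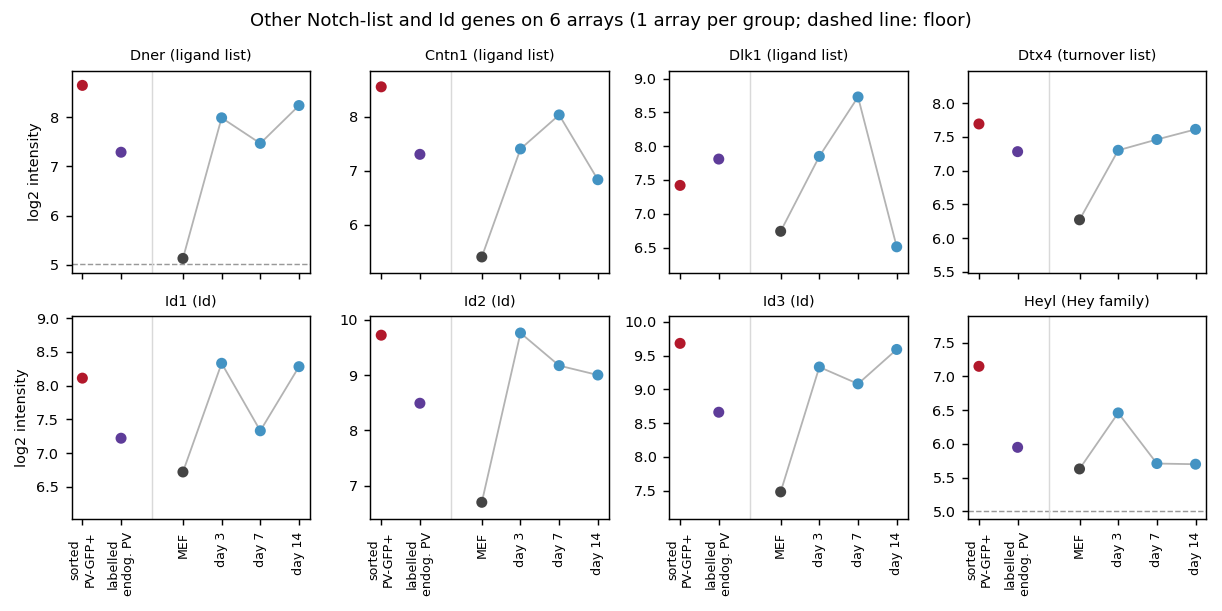
Log2 intensity of 8 further Notch-list and Id genes on the 6 arrays, laid out with sorted PV-GFP+ cells and the array labelled endogenous PV left of the MEF and iPV day series, and the floor as a dashed line where it falls in range. Dner, Cntn1, Dtx4 and the 3 Id genes are lowest in MEF, and Heyl stands at 7.15 in sorted cells, above the other arrays.

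Genes with the most similar profile were found by the largest gap between mean-centred floored values over the 6 arrays, among 2371 named genes that spanned 1 log2 unit or more. Dll3 was nearest to Pde2a (a gap of at most 0.16 log2 units on any array), Sema6b (0.18) and Ifi30 (0.24). Hes6 was nearest to Adcy2 (0.15), Tmem218 (0.17) and Cd82 (0.20). For Dll1 they were Mdga2 (0.10), Sprr2g (0.12) and Slc17a7 (0.12), all below or near the floor except in sorted cells, so the likeness comes largely from floored values. Hes1 and Jag1 shared Oxr1 among their nearest, at 0.25 and 0.29, and the others were Pcmtd2 (0.24) and Hebp2 (0.27) for Hes1 and Slc17a5 (0.25) and Wwc2 (0.31) for Jag1. Oxr1 read 7.89 in sorted cells and 8.01 for the array with the endogenous PV label, against 8.63 in MEF and 8.19, 7.32 and 8.22 at days 3, 7 and 14, with the same low value at day 7.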

How the data were processed

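The authors deposited log2 values for 41345 probe sets on 6 arrays, labelled with biotin from 6 µg of total RNA per the labels' protocols. The submitters' processing notes name Affymetrix Expression Console. Not given in the sources used here are its version, the summarisation and normalization algorithm and the genome build. That the scale is log2 follows from the range of the values. Control probe sets (5333) were left out. Of the others, 23521 named 1 gene in the platform annotation, 1814 named several and 10677 are unnamed here. Each of 22180 genes was represented by its single-symbol probe set with the highest mean. Array medians lay between 4.96 and 5.06, and control medians between 4.25 and 4.72. Precision is limited by the number of arrays, 1 in every group. No detection calls were used, so the floor was the median of non-control probe sets (5.01).

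Differences, counts and spreads were computed with Python 3.11.15, pandas 2.3.3 and numpy 2.4.6, and the counting was tested on simulated data. The probe-set spread is the standard deviation, over 327 to 403 genes, of the disagreement between the brightest pair of probe sets of a gene, divided by the square root of 2. In these genes both probe sets were above the floor on both arrays. The members, gene lists and comparisons were chosen with earlier results of these data known. Named genes were the 10 members, every list gene at least 2-fold apart in a comparison, some preset genes and, for each member spanning 1 log2 unit, its 3 nearest profiles. Some genes of the lists are not analysed here. Alternatives were no floor, a floor at percentile 75 (6.58), quantile normalization, centring on 22 housekeeping genes, and the mean of all probe sets of a gene.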

Additional observations from a re-analysis of the deposited data

How the results depend on the processing

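No count of members reversed its direction under the 5 alternatives. With the floor at percentile 75 (6.58), which hides Dll1 and much of Dll3, 0 members were at least 2-fold apart from MEF at day 3 and 0 at day 14, and 1 was in sorted cells against MEF, in sorted cells against day 14, at day 14 against day 7 and in sorted cells against the array labelled endogenous PV. Centring on housekeeping genes left 1 member at day 14 against MEF (Dll3) and 1 at day 14 against day 7 (Jag1). Quantile normalization left 1 at day 14 against day 7 (Jag1) and 1 in sorted cells against day 14 (Dll3). Dll1 in sorted cells against MEF gave 0.99 with quantile normalization and 0.26 with the mean of its probe sets. Of 90 member differences, 24 moved by more than the probe-set spread with the higher floor, 5 with the mean of probe sets, 2 without a floor and 0 with either scaling. Centring raised the list genes higher in sorted cells than at day 14 to 10, against 5. Centring also moved the share of higher calls among all genes called. Against MEF this share was 32.1% at day 3 (46.7% without centring), 42.8% at day 7 (66.8%) and 32.1% at day 14 (62.6%). Also against MEF, it was 58.3% on the array labelled endogenous PV (68.8%) and 57.3% in sorted cells (69.1%, and 57.7% with quantile normalization). At day 14 against day 7 it was 29.8% (42.3%), and in sorted cells against day 14 it was 82.2% (67.5%). The difference of Jag1 at day 14 against MEF, 0.11, was -0.15 with centring and -0.02 with quantile normalization. No paired analysis was possible because each group has 1 array. Genes near the floor are limited by signal over background.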
